A study of Mus musculus with 24 samples.

Results

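The MYC, MAX and MXD network is a group of transcription factors that meet through a shared dimerization domain, and 10 of its genes were followed here in mouse splenic CD4+ T cells. The members were taken by gene symbol (Myc, Max, Mxd1, Mxd3, Mxd4, Mxi1, Mnt, Mga, Mlx and Mlxip), and all 10 were found among the 54446 gene identifiers of the count table and passed the filter on low counts. CD4+ T cells came from the spleens of wild type (WT) mice of the C57BL6 strain and of Aim2-/- mice on the same background, which lack AIM2, a cytosolic DNA sensor of innate immunity. Cells of each mouse were left unstimulated (0 h) or cultured with anti-CD3/CD28 antibodies, a mimic of antigen and costimulation, for 3, 6 or 24 h. There were 3 mice in each genotype by the labels (WT mice 1, 3 and 4, Aim2-/- mice 1, 2 and 4), hence 24 mRNA libraries of 19715161 to 21627018 counts. Age was not given in the sources used here, and the cells were enriched by negative magnetic selection rather than sorted.

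MYC is a basic helix-loop-helix leucine zipper protein that drives growth and biosynthesis, and in T cells it is the factor through which activation starts ribosome production, amino acid uptake and glycolysis. It binds DNA only as a dimer with MAX, at sites that include the E-box CACGTG. The MXD proteins (MXD1, MXD3, MXD4 and MXI1, also called MXD2) and MNT also pair with MAX at the same sites but bring the SIN3 histone deacetylase complex and oppose MYC. MGA is a large MAX partner of the repressive complex PRC1.6. MLX is a MAX-like protein that pairs with MLXIP, a sensor of glucose phosphates, and with some of the MXD proteins.

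One mouse has to be described before the results. Aim2 itself, at 21.5 CPM (counts scaled to a common library size) in the unstimulated library labelled WT 1, lay near the 15.7, 20.1 and 19.0 CPM of the Aim2-/- mice and far from the 75.0 and 67.5 CPM of WT 3 and WT 4. At 24 h the library labelled WT 1 held 5.57 CPM of Aim2, inside the 5.28 to 7.15 CPM of the Aim2-/- mice. With these libraries Aim2 was not called between the genotypes (log2 fold change -1.58 ± 0.53 SE, adjusted p = 0.0794 at 0 h). The sources used here do not give which exons are deleted, so counts left in Aim2-/- cells are not a level of functional mRNA. The Aim2 level of this mouse goes against its label, which may be wrong. Its sums of myeloid and of basophil and mast cell markers at 0 h (below), 59.4 and 9.55 CPM, lay with those of WT 3 and WT 4. Its plasma cell marker sum, 191 CPM, lay between their 67.1 and 55.8 CPM and the 406 to 785 CPM of the Aim2-/- mice. The mouse was kept in the group its label gives, and the differences of members between genotypes are given below with and without it.

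In GRCm38 coordinates the members lie on 8 chromosomes. Myc (ENSMUSG00000022346) spans chr15:61985391-61990374, Max (ENSMUSG00000059436) chr12:76937269-76962201 and Mxd1 (ENSMUSG00000001156) chr6:86647042-86669161. Mxd3 (ENSMUSG00000021485) spans chr13:55325168-55329823, Mxd4 (ENSMUSG00000037235) chr5:34173883-34187720 and Mxi1 (ENSMUSG00000025025) chr19:53310518-53375810. Mnt (ENSMUSG00000000282) spans chr11:74830920-74845725, Mga (ENSMUSG00000033943) chr2:119897228-119969581, Mlx (ENSMUSG00000017801) chr11:101087277-101092207 and Mlxip (ENSMUSG00000038342) chr5:123394798-123457932. All are protein coding, and a count is the sum over a gene's exons, so isoforms are not told apart.

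The network's own binding sequence stands in the promoters of several of its members. RefSeq promoter windows (GRCm38.p6, 250 bases before to 50 after a start) were at hand for 9 of the 10 members, all but Myc, and CACGTG, which reads the same on both strands, occurred in 4 of the 9. Over the 10598 tested genes with a window, 11.6% held it. These 4 are shown because Max and Mlx ended higher and Mxd4 and Mnt lower after stimulation (below). The E-box is in capitals and the rest in lower case, 5′ to 3′ on the gene's strand.
Max, chr12:76962199-76962498, minus strand, E-box from position -3 before the start: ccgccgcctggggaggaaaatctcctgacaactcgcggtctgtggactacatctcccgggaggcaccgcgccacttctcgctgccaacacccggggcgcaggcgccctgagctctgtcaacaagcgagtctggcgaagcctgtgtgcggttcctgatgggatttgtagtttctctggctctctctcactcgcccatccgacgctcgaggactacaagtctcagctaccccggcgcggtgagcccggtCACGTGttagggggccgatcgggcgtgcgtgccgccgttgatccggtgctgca
Mlx, chr11:101087040-101087339, plus strand, E-box from position -40: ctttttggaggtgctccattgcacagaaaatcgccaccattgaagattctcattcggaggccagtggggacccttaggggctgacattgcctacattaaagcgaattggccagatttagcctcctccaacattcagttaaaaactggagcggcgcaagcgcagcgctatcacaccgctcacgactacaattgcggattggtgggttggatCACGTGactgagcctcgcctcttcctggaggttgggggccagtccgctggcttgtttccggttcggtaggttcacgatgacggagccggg
Mxd4, chr5:34187661-34187960, minus strand, E-box from position -219: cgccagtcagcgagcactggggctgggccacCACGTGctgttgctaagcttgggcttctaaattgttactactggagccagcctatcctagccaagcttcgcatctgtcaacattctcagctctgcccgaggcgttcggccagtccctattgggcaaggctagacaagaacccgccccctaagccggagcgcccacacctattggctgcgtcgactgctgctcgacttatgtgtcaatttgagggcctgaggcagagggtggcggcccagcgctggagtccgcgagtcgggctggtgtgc
Mnt, chr11:74830674-74830973, plus strand, E-box from position -123: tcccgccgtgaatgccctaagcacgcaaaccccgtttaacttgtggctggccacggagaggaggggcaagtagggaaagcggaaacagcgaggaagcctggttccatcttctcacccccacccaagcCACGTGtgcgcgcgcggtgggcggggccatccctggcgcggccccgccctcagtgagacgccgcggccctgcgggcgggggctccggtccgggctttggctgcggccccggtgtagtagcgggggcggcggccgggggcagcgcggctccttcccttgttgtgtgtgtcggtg
A match of 6 letters is a description of the sequence and not a bound site.

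By 24 h stimulation had moved the network away from most MXD genes and towards Myc in both genotypes. Myc rose within 3 h and stayed high to 24 h, Mxd4 and Mxi1 fell at every time, and Mxd1, Mnt and Mlxip were lowest at 24 h. Mxd3 was the one MXD gene that was higher at 24 h than at 0 h. In WT cells 5 of the 10 members were called at 3 h (adjusted p under 0.05 by edgeR's quasi-likelihood test), 6 at 6 h and 9 at 24 h. Of all 15325 tested genes 32.6%, 51.1% and 71.4% were called at these times, so that being called at 24 h was common. In Aim2-/- cells 4, 6 and 9 members were called, beside 30.7%, 51.2% and 70.3% of all genes. Between 3 and 6 h 4 members were called in WT and 3 in Aim2-/- cells, and between 6 and 24 h 9 and 7, beside 25.7%, 23.3%, 57.6% and 54.3% of all genes. The comparisons of a genotype share its libraries. Bulk counts cannot tell a change per cell from a change in the share of cells that express a gene.

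**Figure D1:**
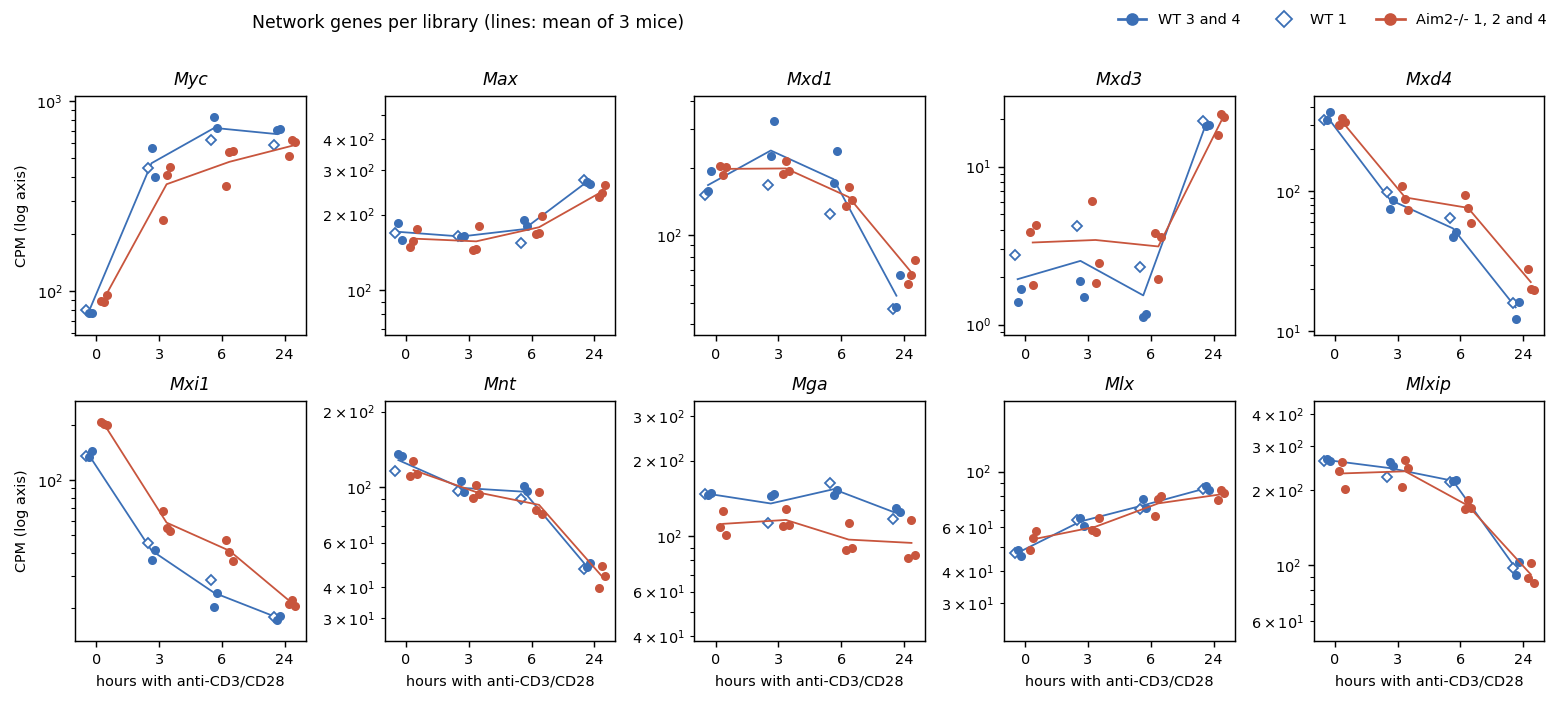
Level of each member in every library in CPM (log axis, a separate range in each panel) by hours of stimulation, with lines through the means of 3 mice and an open diamond for the mouse labelled WT 1. Myc climbed from 77.8 to 671 CPM in WT cells while Mxd4 fell from 340 to 14.9 CPM, and the Aim2-/- points for Mxi1 lie above the WT points at each time.

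Myc was at 80.0, 76.4 and 77.0 CPM in the unstimulated WT mice 1, 3 and 4, and at 446, 569 and 401 CPM after 3 h. It reached 628, 824 and 720 CPM at 6 h and 589, 707 and 718 CPM at 24 h. Every stimulated library lay far above every unstimulated one, and within single mice the 3 h level was 5.20 to 7.44 times the 0 h level. The log2 fold changes were 2.60 ± 0.20 (SE, adjusted p = 7.21e-09), 3.22 ± 0.21 (adjusted p = 1.32e-10) and 3.11 ± 0.21 (adjusted p = 2.05e-11) at 3, 6 and 24 h.

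In Aim2-/- mice 1, 2 and 4, Myc stood at 89.1, 88.1 and 95.3 CPM at 0 h and at 237, 409 and 450 CPM at 3 h. The values were 356, 537 and 545 CPM at 6 h and 517, 624 and 609 CPM at 24 h. Aim2-/- mouse 1 had the lowest Myc of its group at each stimulated time. The rises were called at all 3 times, with log2 fold changes of 2.01 ± 0.20, 2.40 ± 0.20 and 2.68 ± 0.20. In WT cells the step from 3 to 6 h was called (0.62 ± 0.19, adjusted p = 0.0201), but not after leaving out WT 1 (adjusted p = 0.0633), WT 3 (0.0934) or WT 4 (0.233). In Aim2-/- cells that step was called only in the fit with the mouse as a block (0.41, adjusted p = 0.0165, against 0.39, adjusted p = 0.146, without it). From 6 to 24 h Myc was not called in WT cells (-0.11 ± 0.19, adjusted p = 0.638, lower in 3 of 3 mice). It was higher at 24 h in 3 of 3 Aim2-/- mice (0.28 ± 0.19, adjusted p = 0.217), which was called with the mouse as a block (0.30, adjusted p = 0.0434).

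The other MYC genes were hardly detected. Mycn, the MYC gene of neural and other progenitors, passed the filter with 0.270 ± 0.211 CPM in unstimulated and 0.665 ± 0.361 CPM in 24 h WT cells (SD, n = 3 mice), and 2.03 ± 0.958 CPM in 24 h Aim2-/- cells. It was called at 24 h in Aim2-/- cells (1.46 ± 0.53, adjusted p = 0.0196) and not in WT cells (1.28 ± 0.62, adjusted p = 0.0722). Mycl and Mlxipl, a paralog of MLXIP, did not pass the filter. Their group means, 0.034 to 0.376 CPM and 0.0933 to 0.277 CPM, lay on both sides of the 0.129 to 0.155 CPM that 3 counts make.

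Max, the obligate partner, was flat for 6 h and then rose. WT mice 1, 3 and 4 had 168, 186 and 158 CPM of Max at 0 h, 164, 162 and 165 CPM at 3 h, 154, 191 and 180 CPM at 6 h, and 274, 270 and 265 CPM at 24 h. The 24 h libraries lay above all others. The log2 fold change at 24 h was 0.66 ± 0.10 (adjusted p = 3.64e-06) in WT and 0.62 ± 0.10 (adjusted p = 8.93e-06) in Aim2-/- cells, and those at 3 h, -0.06 ± 0.10 and -0.04 ± 0.10, did not pass the test.

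Mlx, the other MAX-like hub, rose earlier. It was at 47.5, 48.6 and 46.2 CPM in unstimulated WT mice 1, 3 and 4, at 64.0, 65.2 and 60.6 CPM at 3 h, and at 85.4, 87.6 and 84.5 CPM at 24 h, with no overlap between these times. The log2 fold changes in WT cells were 0.41 ± 0.08 (adjusted p = 0.000335), 0.63 ± 0.08 (adjusted p = 9.30e-07) and 0.86 ± 0.08 (adjusted p = 3.67e-09) at 3, 6 and 24 h. In Aim2-/- cells they were 0.17 ± 0.08 (adjusted p = 0.116, and 0.0378 with the mouse as a block), 0.48 ± 0.08 and 0.60 ± 0.08. Mlx shares 385 of its 1999 exon bases with Psmc3ip on the opposite strand, which went from 4.28 to 43.2 CPM between 0 and 24 h in WT cells. Since the sources used here do not give the strand setting of the counting, how reads of the shared bases were assigned is not known. The Mlx counts at 24 h may be off in either direction.

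**Figure D2:**
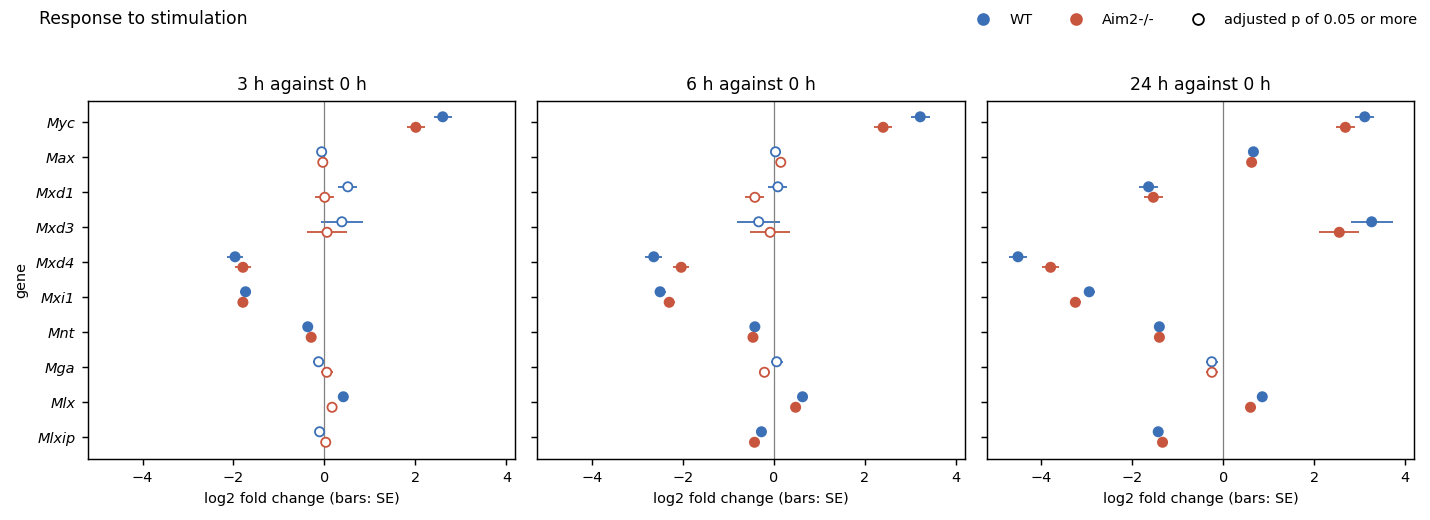
Log2 fold change of each member at 3, 6 and 24 h against 0 h in WT (blue) and Aim2-/- (red) cells, with bars for the SE and filled points for an adjusted p under 0.05. Myc and Mlx stand to the right and Mxd4, Mxi1 and Mnt to the left at every time, while Mxd1, Mlxip, Max and Mxd3 move mainly at 24 h.

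Among the MXD genes Mxd4 and Mxi1 formed an early falling pair. Mxd4, whose product is found in resting and differentiating cells, was at 323, 326 and 371 CPM in unstimulated WT mice 1, 3 and 4. It was at 99.3, 74.5 and 87.3 CPM at 3 h, at 64.7, 47.1 and 51.5 CPM at 6 h, and at 16.0, 12.3 and 16.3 CPM at 24 h. Each time lay below the one before with no overlap, and the 0 h mean was 22.9 times the 24 h mean. The log2 fold changes were -1.97 ± 0.18 (adjusted p = 5.05e-08), -2.64 ± 0.18 (adjusted p = 3.30e-10) and -4.52 ± 0.20 (adjusted p = 8.94e-14). Aim2-/- mice 1, 2 and 4 went from 296, 332 and 313 CPM to 27.7, 20.2 and 19.6 CPM at 24 h (-3.80 ± 0.19, adjusted p = 8.15e-13). The step of Mxd4 from 3 to 6 h was called in WT cells (-0.68 ± 0.17, adjusted p = 0.00667, and 0.0892 without WT 4) and not in Aim2-/- cells (-0.25 ± 0.17, adjusted p = 0.335). Within each Aim2-/- mouse Mxd4 was still lower at 6 h, at 0.799 to 0.860 times its 3 h level, though the groups overlapped.

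Mxi1 was at 135, 133 and 143 CPM at 0 h in WT mice 1, 3 and 4, at 45.5, 36.7 and 41.3 CPM at 3 h, at 28.2, 20.2 and 24.1 CPM at 6 h, and at 17.8, 17.3 and 18.2 CPM at 24 h. Its level fell between all these times with no overlap. The log2 fold changes against 0 h were -1.73 ± 0.12, -2.50 ± 0.12 and -2.95 ± 0.12 in WT cells and -1.79 ± 0.11, -2.30 ± 0.12 and -3.25 ± 0.12 in Aim2-/- cells, all called. Only the step from 6 to 24 h in WT cells turned on 1 mouse (-0.45 ± 0.12, adjusted p = 0.00304, and 0.0636 without WT 1).

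Mxd1, the MXD gene that is best known from differentiation, behaved differently. WT mice 1, 3 and 4 had 151, 157 and 194 CPM of Mxd1 at 0 h, 169, 225 and 324 CPM at 3 h, 124, 172 and 238 CPM at 6 h, and 46.6, 47.8 and 66.5 CPM at 24 h. Each mouse was higher at 3 h than at 0 h, by 1.11 to 1.67 times, but the groups overlapped and the rise was not called (0.51 ± 0.21, adjusted p = 0.0649). It was called with the mouse as a block (0.47, adjusted p = 0.000896) and without WT 1 (0.64, adjusted p = 0.0219). No such rise was measured in Aim2-/- cells (0.01 ± 0.21, adjusted p = 0.985), where the values were 205, 187 and 203 CPM at 0 h and 189, 214 and 194 CPM at 3 h. The difference between these responses was -0.51 ± 0.29 and was not called (edgeR, unadjusted p = 0.0996). At 6 h each Aim2-/- mouse was below its 0 h level (-0.42 ± 0.21, adjusted p = 0.101). That fall was called without WT 1 (adjusted p = 0.0333) or WT 4 (0.0101). At 24 h Mxd1 was below every earlier library in both genotypes (-1.64 ± 0.22, adjusted p = 6.81e-07, in WT and -1.54 ± 0.21, adjusted p = 1.69e-06, in Aim2-/- cells).

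Mxd3, which is expressed in dividing cells, was near the bottom of the range for 6 h and then rose. It was at 2.75, 1.40 and 1.67 CPM at 0 h and at 2.31, 1.12 and 1.17 CPM at 6 h in WT mice 1, 3 and 4, against 19.5, 18.1 and 18.4 CPM at 24 h. In Aim2-/- mice 1, 2 and 4 it was at 3.87, 1.77 and 4.28 CPM at 0 h and at 15.9, 21.7 and 20.6 CPM at 24 h. The 24 h libraries stood apart from all earlier ones (3.26 ± 0.46, adjusted p = 2.05e-06, in WT and 2.55 ± 0.44, adjusted p = 2.98e-05, in Aim2-/- cells). Mxd3 shares 105 of 2369 exon bases with Prelid1 on the other strand, which was at 106 CPM at 0 h and 172 CPM at 24 h in WT cells.

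Mnt, the widely expressed antagonist of MYC, fell by less and mostly after 6 h. It was at 116, 136 and 133 CPM at 0 h, at 96.5, 106 and 95.3 CPM at 3 h, at 89.7, 101 and 96.5 CPM at 6 h, and at 47.2, 47.9 and 49.7 CPM at 24 h in WT mice 1, 3 and 4. The 24 h level was lower than at any other time, with a log2 fold change of -1.41 ± 0.09 against 0 h in WT (adjusted p = 2.42e-11) and in Aim2-/- cells (adjusted p = 3.52e-11). The early fall of Mnt was small, -0.37 ± 0.09 at 3 h in WT cells (adjusted p = 0.00372, and 0.0804 without WT 4) and -0.29 ± 0.09 in Aim2-/- cells (adjusted p = 0.0195, and 0.0549, 0.0840 and 0.0546 without Aim2-/- 1, Aim2-/- 4 or WT 4).

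In the main fit (edgeR, TMM factors, all 24 libraries, no block) Mga was the one member not called against 0 h at any time in either genotype. In WT mice 1, 3 and 4 it was at 148, 146 and 148 CPM at 0 h and at 117, 129 and 124 CPM at 24 h. These groups did not overlap, but the log2 fold change, -0.26 ± 0.13 (adjusted p = 0.0797), was not called, and neither was that of Aim2-/- cells (-0.25 ± 0.13, adjusted p = 0.0863). Both were called with the mouse as a block (adjusted p = 0.0079 and 0.00732), as was the 6 h difference in Aim2-/- cells (-0.21, adjusted p = 0.0332, lower in 3 of 3 mice). The 24 h differences were also called without Aim2-/- 2 (adjusted p = 0.0112 and 0.00819). All 10 members, Mga among them, were called at 24 h in WT cells with RLE factors, library totals, DESeq2 or only the libraries compared. Genes called in all were then 10943, 10912, 11026 and 10629, beside 10946 in the main fit.

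Mlxip, the glucose-sensing partner of MLX, fell late. WT mice 1, 3 and 4 had 261, 266 and 262 CPM of Mlxip at 0 h, 226, 259 and 248 CPM at 3 h, 215, 218 and 220 CPM at 6 h, and 97.4, 91.4 and 104 CPM at 24 h. The last group lay far below the others, with log2 fold changes of -1.43 ± 0.10 (adjusted p = 3.96e-11) in WT and -1.34 ± 0.10 (adjusted p = 1.49e-10) in Aim2-/- cells. At 6 h the fall was -0.43 ± 0.10 in Aim2-/- cells (adjusted p = 0.000923) and -0.27 ± 0.10 in WT cells (adjusted p = 0.0221, and 0.101, 0.0909 and 0.0862 without WT 1, WT 3 or WT 4). Mlx and Mlxip thus moved in opposite directions between 0 and 24 h.

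To compare levels between genes, CPM was divided by the kilobases of merged exons (CPM per kb). In unstimulated WT cells Max was highest (47.5 ± 3.89 CPM per kb, SD, n = 3), followed by Mxd4 (40.1 ± 3.22), Mlxip (31.6 ± 0.338), Myc (28.6 ± 0.694), Mnt (27.7 ± 2.27), Mlx and Mxd1 (23.7 each), Mxi1 (20.1 ± 0.777), Mga (9.61 ± 0.0692) and Mxd3 (0.819 ± 0.302). Myc and Mnt, and Mlx and Mxd1, differed by less than the SD between mice. After 24 h in WT cells Myc led with 247 ± 26.4 CPM per kb, ahead of Max (75.0 ± 1.23) and Mlx (42.9 ± 0.780). Mlxip, Mnt, Mga, Mxd3 and Mxd1 then lay close together, from 11.7 down to 7.58 CPM per kb, and Mxi1 (2.60 ± 0.0664) and Mxd4 (1.75 ± 0.263) were last.

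The 7 genes whose products compete for MAX were set side by side as shares of their summed CPM per kb. Myc made up 20.4%, 19.0% and 17.8% of the sum in unstimulated WT mice 1, 3 and 4, 69.4%, 72.6% and 61.3% at 3 h, 79.3%, 82.4% and 78.0% at 6 h, and 85.4%, 87.5% and 86.7% at 24 h. At 0 h no single partner was dominant, and Mxd4 held the largest share (26.6% ± 0.756, SD). The sum of the 6 partners other than Myc fell from 122 ± 8.34 to 81.5 ± 10.6, 66.5 ± 7.30 and 38.3 ± 1.99 CPM per kb at 0, 3, 6 and 24 h, so that both a higher Myc and lower MXD genes entered the shift. Max mRNA stayed at 47.5, 45.5 and 48.6 CPM per kb at 0, 3 and 6 h while the sum of the 7 partners went from 151 to 255 and 333 CPM per kb.

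In Aim2-/- mice 1, 2 and 4 the share of Myc was 20.6%, 19.8% and 21.6% at 0 h, 52.6%, 65.4% and 69.6% at 3 h, 67.9%, 74.7% and 77.9% at 6 h, and 84.3%, 84.5% and 84.9% at 24 h. The 6 h shares were all below those of the WT mice, by a small margin for mouse 4. The shares were not tested, since the members were chosen with results known. Counted in CPM with no division by length, the share of Myc in WT cells was lower, 7.80% at 0 h and 70.7% at 24 h. Shares of mRNA are not shares of protein.

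**Figure D3:**
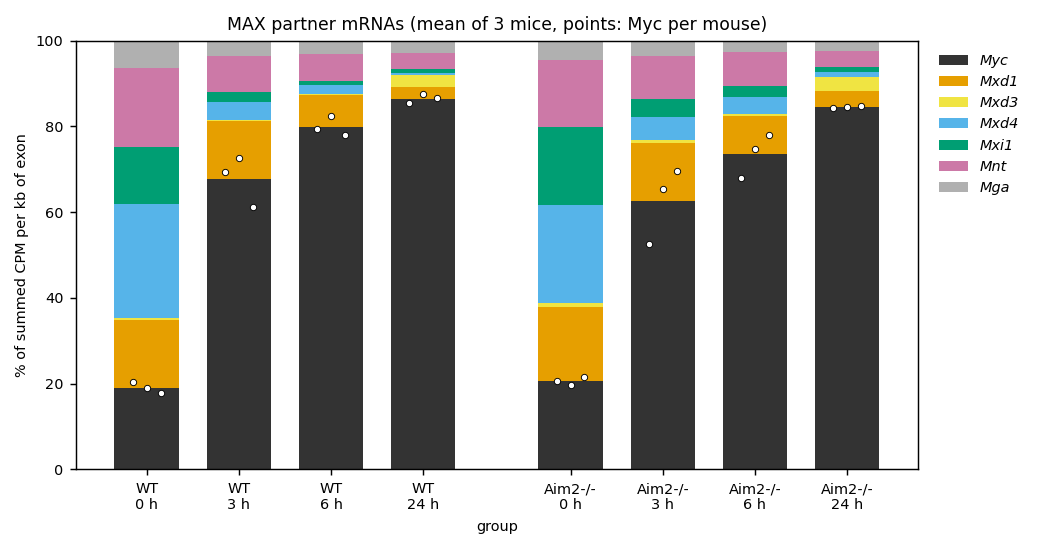
Composition of the 7 MAX partner mRNAs in each group, as percent of their summed CPM per kb of exon (bars, mean of 3 mice), with the share of Myc in each mouse as white points. Myc takes 19.1% of the sum in unstimulated WT cells and 86.5% at 24 h, and Mxd4, the largest share at 0 h, shrinks to 0.620%.

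Genes whose group means ran most like Myc were searched among the 9413 tested genes of at least 10 CPM in their highest group. Over the 8 group means, on the log2 scale, the 5 highest Pearson correlations were those of Ccdc137 (0.995), Nle1 (0.995), Ly9 (0.994), Il2ra (0.994) and Polr3d (0.993). Il2ra, the high-affinity chain of the interleukin 2 receptor, went from 100.4 CPM in unstimulated to 894 CPM in 6 h WT cells. Nle1 is a ribosome assembly factor and Polr3d a subunit of RNA polymerase III. For Mxd4 the highest included Tmem63a (0.998), Dedd2 (0.997), Bnip3l (0.996) and Tmem59 (0.996), all with lower means at each later time in WT cells. The points share libraries and scaling, and these values only describe likeness of pattern.

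Genes known as MYC-induced targets rose with Myc. Of 45 such genes, 38 were called higher at 3 h in WT cells, 44 at 6 h and 44 at 24 h, against 16.2%, 26.4% and 36.6% of all genes. Their median log2 fold change was 0.96, 1.89 and 2.53 at these times, beside 0.02, 0.02 and -0.01 over all genes. In Aim2-/- cells 40, 43 and 44 were called higher, against 16.1%, 28.5% and 36.8% of all genes. Without WT 3 the 3 h count in WT cells was 28, with 2936 genes called in all in place of 4992. Without Aim2-/- 4 the 3 h count in Aim2-/- cells was 25. Genes called in all at 3 h in Aim2-/- cells ran from 2803 to 6307 over the alternatives, beside 4698 in the main fit. The list was written from general knowledge with earlier results known.

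The largest rises were in Shmt1, a folate cycle enzyme, from 6.22 ± 0.674 to 371 ± 27.9 CPM at 24 h in WT cells (SD, n = 3, log2 fold change 5.90 ± 0.36 SE), in Srm, which makes spermidine (15.4 to 576 CPM, 5.22 ± 0.27), and in Dctpp1, a nucleotide pyrophosphatase (6.04 to 166 CPM, 4.78 ± 0.25). The exception was Odc1, the first enzyme of polyamine synthesis and a textbook MYC target. Odc1 fell in WT cells from 688, 688 and 815 CPM at 0 h to 351, 328 and 304 CPM at 24 h in mice 1, 3 and 4 (-1.16 ± 0.11, adjusted p = 9.48e-09), and by 1.46 on the log2 scale in Aim2-/- cells. Of the 36 listed targets with a promoter window, 13 held CACGTG.

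Genes known to be held down by MYC gave a mixed picture. Of 11 tested, 4, 6 and 7 were called lower in WT cells at 3, 6 and 24 h, against 16.4%, 24.8% and 34.8% of all genes, and 0, 0 and 2 were called higher. Cdkn1b, which encodes the cell cycle inhibitor p27, fell from 405 ± 28.8 to 36.2 ± 3.81 CPM at 24 h (-3.48 ± 0.17). Ndrg1 (-3.20 ± 0.19) and Klf6 (-2.90 ± 0.15) fell as well, while Gas2 (1.92 ± 0.31) and the cell cycle inhibitor gene Cdkn2c (0.97 ± 0.27) rose. In Aim2-/- cells 5, 5 and 7 were called lower, against 14.6%, 22.7% and 33.5% of all genes, and 0, 0 and 1 higher.

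Txnip and Arrdc4, the genes best known as MLX:MLXIP targets, were lower at 24 h, as Mlxip was, and Txnip was already lower at 3 h, when Mlxip was not called. Txnip, which curbs glucose uptake, fell from 1097 ± 99.2 to 73.1 ± 16.3 CPM in WT cells at 24 h (log2 fold changes of -1.01 ± 0.15, -1.72 ± 0.15 and -3.91 ± 0.17 at 3, 6 and 24 h). Its relative Arrdc4 was at 8.33 ± 3.37 CPM at 0 h and 1.06 ± 0.413 CPM at 24 h (-2.97 ± 0.40, adjusted p = 8.50e-07), with no change beyond the error at 3 or 6 h.

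**Figure D4:**
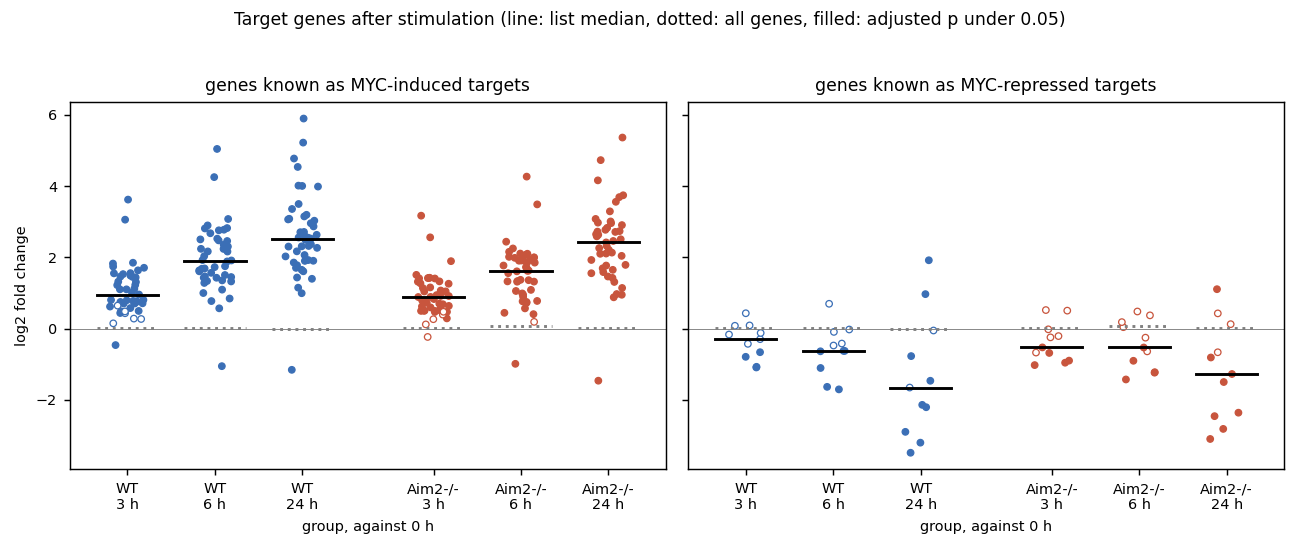
Log2 fold changes against 0 h of 45 genes known as MYC-induced and 11 known as MYC-repressed targets, 1 point per gene, in WT (blue) and Aim2-/- (red) cells, with a line at the list median, a dotted line at the median of all genes and filled points for an adjusted p under 0.05. The induced list moves up as a block to a median of 2.53 at 24 h in WT cells with Odc1 below 0, and the repressed list spreads downwards with 2 genes called higher.

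Among 19 cofactors of MYC, 8 were called higher and 7 lower at 24 h in WT cells, close to the 36.6% and 34.8% of all genes. Ruvbl2 (2.96 ± 0.15), Ruvbl1 (2.78 ± 0.19), the helicases of the TIP60 complex, and the acetyltransferase gene Kat2a (1.66 ± 0.11) rose most, and Bin1 (-1.85 ± 0.13), a MYC-binding tumour suppressor, and Ep400 (-0.97 ± 0.11) were among those that fell. Of 16 genes of MYC protein turnover, 7 were called higher and 4 lower. Aurka, a mitotic kinase that shields MYC proteins (3.91 ± 0.26), Cip2a, an inhibitor of PP2A (3.12 ± 0.31), and Skp2, an F-box protein of the cell cycle (2.69 ± 0.18), rose most. Usp28 (-2.02 ± 0.13), a deubiquitinase of MYC, Huwe1 (-0.92 ± 0.14), a ubiquitin ligase, and Gsk3b (-0.82 ± 0.12), a kinase that marks MYC for decay, fell most. Aurka, Cip2a and Skp2 were not called at 3 or 6 h in WT cells.

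The partners of the antagonists moved in both directions. In the SIN3 corepressor complex, 5 of 17 genes were called higher and 8 lower at 24 h in WT cells, beside 36.6% and 34.8% of all genes, with Rbbp7 (1.81 ± 0.14), Hdac2 (1.43 ± 0.12) and Sap30 (1.10 ± 0.24) rising and Arid4b (-2.11 ± 0.15), Arid4a (-1.47 ± 0.18) and Ing2 (-0.75 ± 0.14) falling most. In PRC1.6, the complex of MGA, 7 of 11 were called higher and 3 lower at that time. Tfdp1 (3.79 ± 0.13), E2f6 (1.77 ± 0.11) and Cbx3 (1.69 ± 0.12) rose most, and Rybp (-1.16 ± 0.18), Rnf2 (-1.06 ± 0.07) and Tfdp2 (-0.43 ± 0.14) fell.

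For all members but Mga, differences between Aim2-/- and WT cells were smaller than the changes after 24 h of stimulation. Mga differed between genotypes by -0.40, -0.67 and -0.39 at 0, 6 and 24 h. Its changes after 24 h of stimulation were -0.26 in WT and -0.25 in Aim2-/- cells. Mxi1 was called higher in Aim2-/- cells at 0 and 6 h, and Mga, Myc and Mlxip were called lower at 6 h, while none of them was called with counts summed per mouse. At 0, 3, 6 and 24 h, 1, 0, 4 and 0 members were called, beside 5.23%, 0.294%, 15.8% and 0.666% of all genes. At 3 and 24 h 1 and 3 members had an unadjusted p under 0.05, and DESeq2 called 1 at each. The groups did not overlap for 5, 1, 4 and 5 members, beside 28.5%, 15.1%, 35.6% and 21.3% of all genes. With 3 mice against 3, an exact permutation test of 1 gene cannot go below p = 0.10.

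**Figure D5:**
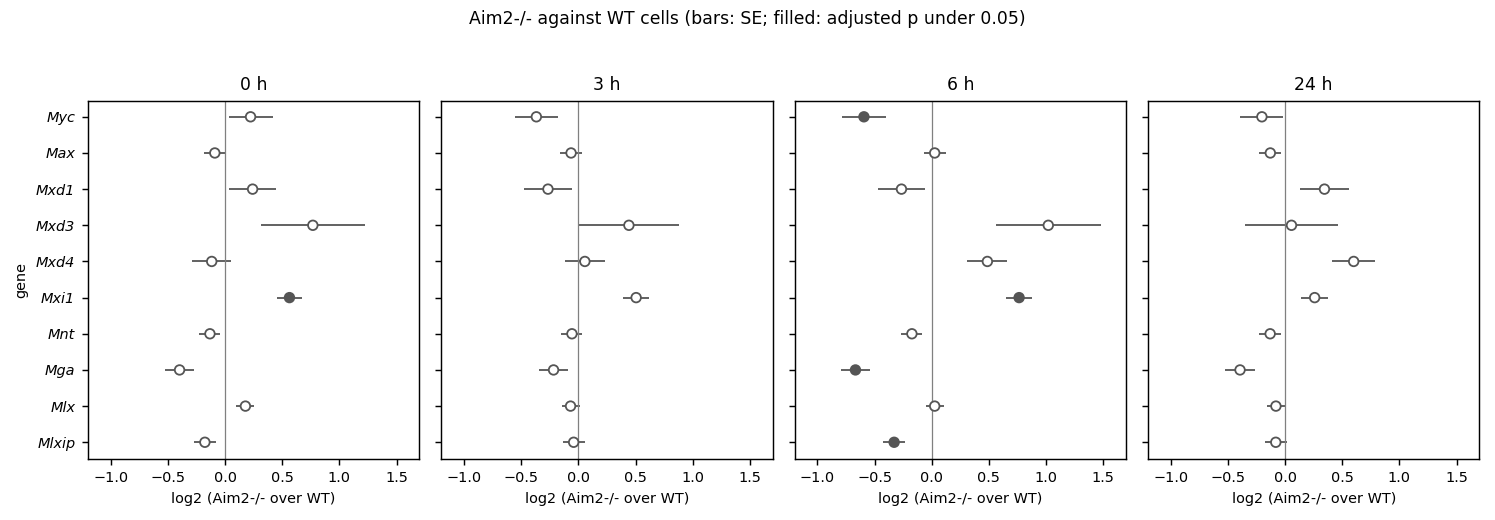
Log2 difference between Aim2-/- and WT cells for each member at 0, 3, 6 and 24 h, with bars for the SE and filled points for an adjusted p under 0.05. Mxi1 lies to the right and Mga to the left of 0 at all 4 times, and 4 of the 5 filled points are at 6 h.

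Mxi1 was at 207, 202 and 200 CPM in unstimulated Aim2-/- mice 1, 2 and 4, above the 135, 133 and 143 CPM of WT mice 1, 3 and 4. At 3 h it was at 68.1, 54.7 and 52.6 against 45.5, 36.7 and 41.3 CPM, at 6 h at 46.7, 40.3 and 36.1 against 28.2, 20.2 and 24.1 CPM, and at 24 h at 21.0, 22.1 and 20.6 against 17.8, 17.3 and 18.2 CPM. The genotypes did not overlap at any of the 4 times, and the mouse labelled WT 1 lay with the other WT mice at 0 and 24 h and was the highest of them at 3 and 6 h. The log2 differences were 0.56 ± 0.11 (adjusted p = 0.0101), 0.50 ± 0.11 (0.0599), 0.76 ± 0.12 (0.00349) and 0.26 ± 0.12 (0.227) at 0, 3, 6 and 24 h. Without WT 1 they were 0.55, 0.58, 0.89 and 0.26 (adjusted p = 0.0141, 0.0185, 0.0011 and 0.287). The call at 0 h was lost without WT 3 (0.51, adjusted p = 0.0907) or WT 4 (0.57, adjusted p = 0.0768), and that at 3 h was gained without Aim2-/- 2 (0.55, adjusted p = 0.0252). The call at 6 h held in all 15 alternatives, with adjusted p from 4.09e-06 to 0.0433.

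Mga was at 88.2, 113 and 89.6 CPM at 6 h in Aim2-/- mice 1, 2 and 4 and at 162, 146 and 153 CPM in WT mice 1, 3 and 4. Aim2-/- mouse 2 was the nearest to WT at every time. The log2 difference at 6 h was -0.67 ± 0.13 (adjusted p = 0.00574), -0.63 without WT 1 (adjusted p = 0.015) and -0.72 without WT 4 (adjusted p = 0.0521). At 0 and 24 h the groups did not overlap either, with differences of -0.40 ± 0.13 (adjusted p = 0.0688) and -0.39 ± 0.13 (adjusted p = 0.115), which were called without Aim2-/- 2 (-0.49, adjusted p = 0.00442, and -0.58, adjusted p = 0.00188) and were -0.40 (adjusted p = 0.105) and -0.43 (adjusted p = 0.141) without WT 1. At 3 h the difference was -0.22 ± 0.13 (adjusted p = 0.422) and the groups overlapped through the 113 CPM of WT 1, without which it was -0.33 (adjusted p = 0.209).

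At 6 h Myc was lower in all 3 Aim2-/- mice (356 to 545 CPM) than in all 3 WT mice (628 to 824 CPM), by -0.59 ± 0.19 on the log2 scale (adjusted p = 0.0405). This call was not kept when any mouse except Aim2-/- 2 was left out: the adjusted p was 0.0504 without WT 1 (difference -0.69), 0.156 without WT 3, 0.115 without WT 4, 0.0937 without Aim2-/- 1 and 0.0691 without Aim2-/- 4. At 0 h Myc was slightly higher in the Aim2-/- mice, 88.1 to 95.3 against 76.4 to 80.0 CPM with no overlap (0.22 ± 0.19, adjusted p = 0.502). At 3 and 24 h the genotypes overlapped (-0.37 ± 0.19, adjusted p = 0.353, and -0.20 ± 0.19, adjusted p = 0.569). Without WT 1 the differences of Myc at 0, 3 and 24 h were 0.24, -0.41 and -0.29 (adjusted p = 0.564, 0.314 and 0.497).

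The difference between genotypes in the response of Myc to 6 h of stimulation was -0.82 ± 0.27 (adjusted p = 0.192), and with the mouse as a block it was -0.84 (adjusted p = 0.0156). The like difference in the response of Mxd4 was 0.60 ± 0.24 at 6 h (adjusted p = 0.285, with the block 0.58 and 0.044) and 0.72 ± 0.25 at 24 h (adjusted p = 0.259, with the block 0.70 and 0.0328). Without WT 1 these 3 differences were -0.93, 0.78 and 0.81 (adjusted p = 0.269, 0.284 and 0.241). Without the block no member was called in these interactions at 3, 6 or 24 h by edgeR, DESeq2 or limma-voom on the filtered genes (Myc at 6 h was with no filter on low counts), and 2 members at each time had an unadjusted p under 0.05. Of all genes 0.0%, 0.0261% and 0.0% were called by edgeR.

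Mlxip at 6 h was at 168, 182 and 170 CPM in Aim2-/- mice 1, 2 and 4 and at 215, 218 and 220 CPM in WT mice (-0.33 ± 0.10, adjusted p = 0.0306). That call too was lost without WT 1 (-0.34, adjusted p = 0.0657), WT 3 (0.108), WT 4 (0.101), Aim2-/- 1 (0.102) or Aim2-/- 4 (0.0769). Mxd4 was higher on average in Aim2-/- cells at 6 h (0.49 ± 0.17, adjusted p = 0.0598, and 0.63, adjusted p = 0.049, without WT 1) and at 24 h (0.60 ± 0.19, adjusted p = 0.105, with 0.67, adjusted p = 0.0474, without Aim2-/- 2, and 0.66, adjusted p = 0.133, without WT 1). At 0 and 3 h it differed by -0.12 and 0.06, and by -0.15 and 0.16 without WT 1, none called. At 24 h its 27.7, 20.2 and 19.6 CPM in Aim2-/- mice lay above the 16.0, 12.3 and 16.3 CPM of WT mice. Max and Mlx differed by no more than 0.18 on the log2 scale at any time, and Mnt by at most 0.17 below WT, none of them called. Without WT 1 the differences of these 3 genes were between -0.22 and 0.18, again with none called. Mnt at 6 h was called without Aim2-/- 2 (-0.27, adjusted p = 0.0238), and so was Mxd3 (1.27, adjusted p = 0.0419, against 1.02 ± 0.46, adjusted p = 0.124, with all mice, and 1.44, adjusted p = 0.0584, without WT 1). Mxd3 at 0, 3 and 24 h differed by 0.77, 0.44 and 0.06, and by 1.11, 1.02 and 0.09 without WT 1. Mxd1 differed by 0.24, -0.27, -0.27 and 0.34 at 0, 3, 6 and 24 h, and by 0.17, -0.47, -0.47 and 0.25 without WT 1. Mlxip at 0, 3 and 24 h differed by -0.18, -0.04 and -0.08, and by -0.18, -0.10 and -0.08 without WT 1. None of these was called.

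With the 4 libraries of each mouse summed, so that a mouse counted once, 0 of the 10 members were called, beside 0.0117% of 17163 genes, and 3 had an unadjusted p under 0.05. They were Mxi1 (0.58 ± 0.07, adjusted p = 0.0546), Mga (-0.40 ± 0.09, adjusted p = 0.127) and Myc (-0.35 ± 0.14, adjusted p = 0.204). DESeq2 called 2 members here. Without WT 1 the differences of Mxi1, Mga and Myc were 0.60, -0.42 and -0.42 (adjusted p = 0.0364, 0.119 and 0.203). Without Aim2-/- 2 Mxi1 (0.57, adjusted p = 0.0169), Mga (-0.53, adjusted p = 0.0169) and Mlxip (-0.23, adjusted p = 0.0367) were called.

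Of the 45 MYC-induced targets, 11 were called lower in Aim2-/- cells at 6 h and 1, Odc1, higher, beside 7.01% and 8.78% of all genes. The median difference was -0.41 against 0.05 over all genes. Without WT 1, 5 were called lower, and without WT 3 or WT 4 none. Over all alternatives the genes called in the whole table at 6 h ran from 95 to 5516, beside 2421 in the main fit. With scores of other cells' markers in the fit (below) 0 of the 45 were called. Odc1 was higher in Aim2-/- cells at 0, 3 and 6 h (0.39, 0.62 and 0.46, adjusted p = 0.0469, 0.0235 and 0.0160). At 24 h 0 of the 45 were called. Arrdc4 was higher in Aim2-/- cells at 6 h (1.06, adjusted p = 0.0406), at 13.3 to 19.6 against 4.97 to 10.2 CPM. Before stimulation it was also higher on average, at 17.1 ± 4.54 against 8.33 ± 3.37 CPM (SD), but not called. Among the MYC-repressed targets Cdkn2c (1.05, adjusted p = 0.0183) and Ndrg2 (0.55, adjusted p = 0.0261) were higher at 6 h. Cdkn2c was higher on average at 0 h too, at 15.1 ± 3.21 against 8.79 ± 1.46 CPM (SD), but not called. Ndrg2 is named here after its values were seen. Of the cofactors 6 of 19 were called lower at 6 h and none higher, of the turnover genes 2 of 16 lower and 1 higher, of the SIN3 genes 1 of 17 lower and 3 higher, and of the PRC1.6 genes 1 of 11 lower (Rybp, -0.58 ± 0.18, adjusted p = 0.0385).

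Markers of other cells moved with the genotype. The defining markers of CD4+ T cells (8 genes of the T cell receptor and its signalling) summed to 4591 to 4944 CPM in unstimulated Aim2-/- and 4656 to 4891 CPM in WT mice. The sum of 8 myeloid markers was 184 to 532 against 54.4 to 71.6 CPM, that of 8 B cell markers 14.4 to 42.6 against 3.96 to 5.90 CPM, and that of 4 plasma cell markers 406 to 785 against 55.8 to 191 CPM. That of 7 erythroid markers was 23.3 to 365 against 8.72 to 74.1 CPM, of 4 NK cell markers 132 to 155 against 65.8 to 79.1 CPM, and of 5 basophil and mast cell markers 53.3 to 102 against 7.20 to 9.98 CPM. The sum of the 2 CD8 markers, 8.12 to 10.9 against 9.77 to 11.4 CPM, overlapped. At 0 h no gene of these marker lists was at 0 counts throughout either genotype. Aim2-/- mouse 1, with the lowest Myc after stimulation, had the highest B cell, plasma cell, myeloid and erythroid sums at 0 h. When the fit also held a score for each of the B cell, myeloid and erythroid lists, the 6 h difference was 0.70 for Mxi1 (adjusted p = 0.00895) and -0.49 for Mga (adjusted p = 0.019), and the calls of Myc (-0.39, adjusted p = 0.224), Mlxip (-0.23, adjusted p = 0.209) and, at 0 h, Mxi1 (0.46, adjusted p = 0.0652) were lost. The differences of Mga at 0, 3 and 24 h, not called before, were then -0.19, -0.06 and -0.18 (adjusted p = 0.363, 0.900 and 0.840). Since the B cell and myeloid sums did not overlap between the genotypes at 0 h, effects of these scores and of genotype cannot be told apart. Whether other cells had a part in any of these differences, lost or kept, was not tested.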

How the data were processed

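CD4+ T cells of 3 WT and 3 Aim2-/- mice were sequenced as stranded mRNA libraries at 4 times. The authors aligned the reads to GRCm38 with STAR and deposited raw counts per gene, and those counts (19715161 to 21627018 per library) were used as deposited. The study's methods also name RSEM and limma-voom, and the labels list DESeq2 and edgeR, for data or steps not used here. The strand setting of the counting is not given in the sources used here. Identifiers were matched to the GENCODE annotation of GRCm38 (54409 of 54446 matched), and promoter windows were taken from RefSeq.

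Counts of all 24 libraries were fitted with edgeR 4.0.16 in R 4.3.3 (quasi-likelihood F test, two-sided, TMM factors, 1 mean per genotype and time). filterByExpr with a minimum count of 10 kept 15325 genes. P-values were adjusted over all of them by Benjamini-Hochberg, and called means an adjusted p under 0.05. The common biological coefficient of variation was 18.6%. CPM values use the TMM factors. For genotypes, the 4 libraries of each mouse were also summed. The script was checked on simulated data with known changes. DESeq2 1.42.0, limma 3.58.1 (voom), other scalings and filters, blocks, marker scores and leaving out each mouse were alternatives. Those of the MYC-induced list were added after seeing the data. Replicates are separate mice, and no libraries of a group agreed within sampling noise (chi-square per degree of freedom 7.12 to 56.7).

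The labels number the mice, and the 36 pairs of libraries from 1 mouse deviated together (r of 0.139 to 0.567), while pairs of different mice of a genotype gave -0.432 to 0.0742. The mouse therefore pairs times within a genotype. Equal numbers in the 2 genotypes mark different mice.

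Members and lists were chosen with earlier results of these data known. Named genes are the members, their paralogs, Txnip, Arrdc4 and Aim2, in each other list up to 3 genes that rose and 3 that fell most among those called at 24 h in WT cells, genes called between genotypes at 2 or more times, and the 5 genes most like Myc and Mxd4. Of the genes this rule names, 2 are not reported here.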

Additional observations from a re-analysis of the deposited data

Results flagged for a closer look

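The values of Mga went in opposite directions between 0 and 3 h in the 2 genotypes. It went from 148, 146 and 148 to 113, 144 and 147 CPM in WT mice 1, 3 and 4, lower in each, and from 109, 126 and 101 to 110, 128 and 110 CPM in Aim2-/- mice 1, 2 and 4, higher in each. The difference between the responses was 0.18 ± 0.18 on the log2 scale (edgeR, adjusted p = 1) and did not pass the test. Without WT 1 it was 0.07. The mouse labelled WT 1 differed most between the times.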

How the results depend on the processing

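Of 100 log2 fold changes of members over time, 62 were called, and 51 of these were called in every alternative. Of the 5 called between genotypes 1 was (Mxi1 at 6 h). No called value changed sign in any alternative, and uncalled values did so 79 times. The values recomputed in all, called ones included, were 2560. Scaling by library totals alone moved the median gene by 0.11 (WT, 3 h), 0.12 and 0.12 (Aim2-/-, 3 and 6 h) on the log2 scale, and Max at 3 h in WT cells was then at 0.05 instead of -0.06. With the mouse as a replicate block, which pairs the times, 8 instead of 3 members were called between 3 and 6 h in Aim2-/- cells, and 2 and 1 instead of 0 in the interactions at 6 and 24 h, while the genes called in the whole table went from 3571 to 5438, from 4 to 717 and from 0 to 424. It changed no other count by over 1.5 times. With only the libraries compared, 1 was called between 3 and 6 h in Aim2-/- cells. The mouse number as a replicate block between genotypes, where equal numbers are different mice (r of -0.165 to 0.300), gave 3, 2, 7 and 2 members at 0, 3, 6 and 24 h and 2 with summed counts, in place of 1, 0, 4, 0 and 0, while the calls over all genes went to 3613, 2324, 5516, 3235 and 2089 from 802, 45, 2421, 102 and 2. Only numbers 1 and 4 occur in both genotypes, and the terms for 2 and 3 each took up a single mouse. The genotype difference averaged over the times thus rested on mice 1 and 4 in that fit. With summed counts it left almost no residual degrees of freedom, so its calls are weak evidence. DESeq2 gave 2 at 0 h, 1 at 3 h, 1 at 24 h and 2 with summed counts, limma-voom 1 at 3 h, and no filter on low counts 2, 1 and 2 at 0, 3 and 24 h, 1 in the interaction at 6 h and 2 with summed counts. All genes called by DESeq2 were 1557, 307, 787 and 1725 in these 4 comparisons. Marker scores gave 0 at 0 h and 2 at 6 h, with 163 and 346 genes called in all. Leaving out 1 mouse gave 1 to 4 (WT, 6 against 3 h), 0 to 2 (genotypes, 0 h), 0 to 1 (3 h), 1 to 6 (6 h), 0 to 2 (24 h) and 0 to 3 (summed) called members. Over all alternatives the whole table held 1538 to 5537 calls (WT, 6 against 3 h) and 0 to 2939 (summed). Between genotypes it held 30 to 3613, 1 to 2324, 95 to 5516 and 0 to 3235 at 0, 3, 6 and 24 h.

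For the 45 MYC-induced targets, calls between genotypes at 6 h (12 in either direction) were 27 with no filter, 19 with a mean of at least 1 CPM, 20 with DESeq2, 4 with only the libraries compared, 21 with the mouse number as a replicate block, 0 with marker scores and 0 to 18 without 1 mouse. At 0 h (1 call) they were 0 with RLE factors, 3 with no filter, 2 with DESeq2, 0 with only the libraries compared, 4 with the block, 0 with scores and 0 to 2 without 1 mouse. At 3 h (1 call) they were 0 with only the libraries compared, 3 with the block, 0 with scores and 0 to 2 without 1 mouse, and at 24 h (0 calls) 2 with no filter, 6 with the block and 0 to 4 without 1 mouse. In Aim2-/- cells at 3 h 25 to 39 were called without 1 mouse. Over the same alternatives the whole table held 30 to 3613 calls between genotypes at 0 h and 1 to 2324 at 3 h. At 6 and 24 h it held 95 to 5516 and 0 to 3235. In the main fit these calls were 802, 45, 2421 and 102. Calls over all genes thus changed with the setting too, so the counts of targets alone do not show a change particular to these genes. The cause of these changes in the counts of targets was not tested. Depth limits Mycl, Mlxipl and Mxd3 before 24 h, whose levels rest on few counts.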
